A study of Mus musculus with 13 samples.

Results

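The inflammasome and pyroptosis genes are 9 transcripts chosen by name: the sensors *Nlrp3*, *Nlrc4* and *Aim2*, the adaptor *Pycard*, the caspases *Casp1* and *Casp4*, the pore former *Gsdmd*, the cytokine *Il18* and its binding protein *Il18bp*. All 9 were found among the 47643 genes counted, and 8 of them had enough reads for the main test. They were measured by RNA sequencing of neurovasculature, the vessel fraction isolated from the brain, in 13 male CD1 mice aged 8 to 10 weeks. The 4 sham-vehicle mice received no lipopolysaccharide (LPS, the outer membrane glycolipid of gram-negative bacteria, here from *Salmonella enterica* typhimurium), and the series describes the control injection as PBS. The 5 LPS-vehicle mice were injected intraperitoneally with 3 mg/kg LPS at 0, 6 and 24 h. The 4 LPS-CPD-4645 mice received the same LPS and, 30 min after each dose, 10 mg/kg subcutaneous CPD-4645, a covalent inhibitor of monoacylglycerol lipase, the enzyme that hydrolyses the endocannabinoid 2-arachidonoylglycerol. This delay is the one in the labels and methods, and another part of the study's text gives a longer one. CPD-4645 was dissolved in DMSO, Cremophor and saline, and by their group names the other mice received vehicle without it. Tissue was collected at 28 h. No group received CPD-4645 without LPS, and the brains were not perfused, so that blood remained in the vessels.

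Inflammasomes are protein platforms that assemble in the cytosol when a sensor meets a microbial product or a sign of cell damage. The sensor recruits the adaptor ASC, the product of *Pycard*, which clusters pro-caspase-1, and active caspase-1 then cuts pro-IL-1β, pro-IL-18 and gasdermin D. Gasdermin D fragments form pores in the plasma membrane through which the cytokines leave and the cell can die by pyroptosis. In the non-canonical branch mouse caspase-11, encoded by *Casp4*, binds LPS inside the cell and cuts gasdermin D itself. Sensors and cytokine precursors are known to be primed by transcription, whereas assembly and cleavage are protein events that mRNA levels do not show.

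Total counts per library ran from 7813559 to 55133373, and those with the fewest belonged to mouse 3 of the LPS-vehicle and mouse 1 of the LPS-CPD-4645 group. Per kilobase of exon the average neuronal marker stood at 523 to 601 CPM (read counts scaled to a common library size of 1000000) in the sham-vehicle mice and the average oligodendrocyte marker at 176 to 255, above the 16.8 to 26.3 of the average endothelial marker. These are levels per marker and not shares of cells. By RT-qPCR the study found *Gfap*, *Pdgfrb* and *Pecam1* enriched in the fraction, and *Syp* and *Aif1* low. Summed markers of neutrophils and of monocytes and macrophages differed between the groups. The summed CPM of 10 neutrophil markers ran from 3.01 to 7.7 in the sham-vehicle, from 71.5 to 293 in the LPS-vehicle and, with CPD-4645, from 11.9 to 32.1. That of 9 monocyte and macrophage markers ran from 20.6 to 27.4, from 60.5 to 120 and from 30.6 to 45.8 in the same order. None of these genes was at 0 in all 13 libraries. At the threshold defined below, 9 of 9 neutrophil markers tested were higher after LPS and 8 were lower with CPD-4645. Of 8 monocyte and macrophage markers tested, 7 were higher and 2 lower, beside 4.68% and 4.19% of all genes. Sums of 5 erythrocyte markers ran from 468 to 957, from 239 to 460 and from 325 to 705 in the same order, and none of the 4 tested passed. The summed CPM of 9 lymphocyte markers, of which 1 could be tested and did not pass, ran from 3.51 to 4.99, from 3.32 to 4.66 and from 2.63 to 4.97. The summed CPM of 6 microglial markers ran from 174 to 229, from 114 to 218 and from 119 to 144. Lists of 6 markers for each of 3 other brain cell types had sums that did not overlap between the sham-vehicle and LPS-vehicle mice, by smaller ratios than the neutrophil and monocyte lists, and the LPS-CPD-4645 mice overlapped with both. Astrocyte sums ran from 1270 to 1610, from 1630 to 2150 and from 1520 to 2050 in the same order, neuronal sums from 8720 to 10000, from 7440 to 8230 and from 7830 to 10100, and oligodendrocyte sums from 4450 to 6390, from 3160 to 4180 and from 3690 to 4760.

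**Figure D1:**
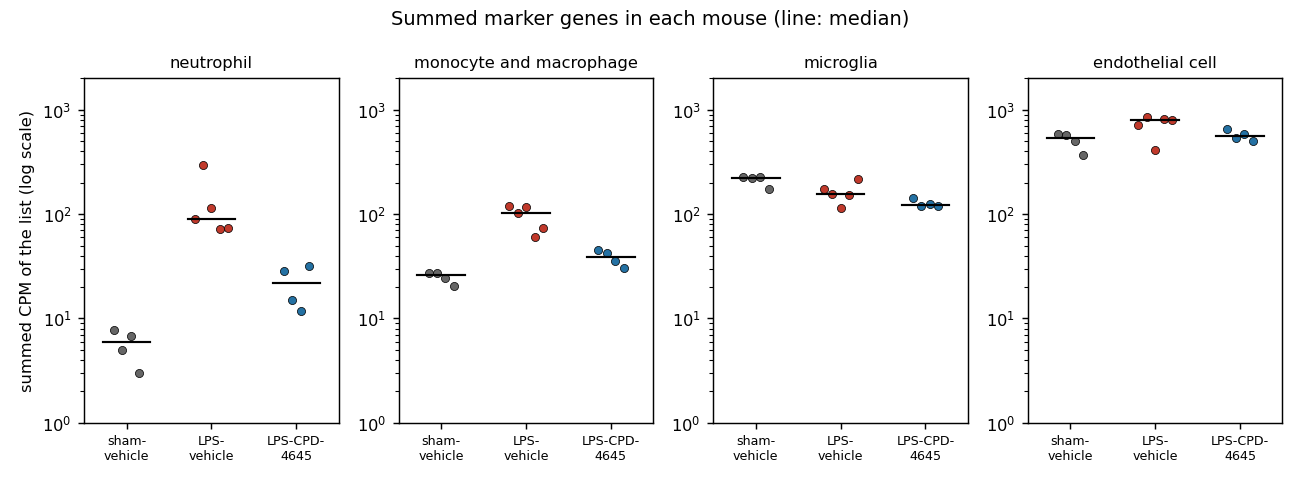
Summed CPM of the neutrophil, monocyte and macrophage, microglial and endothelial marker lists in each mouse (points, log scale), with the group median as a line. The 5 LPS-vehicle mice lie from 71.5 to 293 for neutrophil markers and with CPD-4645 the 4 mice lie from 11.9 to 32.1, whereas the ranges of the endothelial list overlap in the 3 groups.

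The sequences before the start sites of 4 members are shown here because they are pairs whose partners had unlike courses over the 3 groups: *Casp4* with its neighbour *Casp1*, and the adaptor *Pycard* with the sensor *Nlrp3*. Each is the 250 bases that end just before the RefSeq start site nearest the GENCODE start of the gene, on GRCm38.p6, read 5′ to 3′ on the strand of the gene, and capitals mark matches to the NF-kB consensus on either strand. The windows are chr9:5308599-5308848 (plus strand), chr9:5298267-5298516 (plus), chr11:59541319-59541568 (plus) and chr7:127993868-127994117 (minus), in the order printed. The GENCODE genes of *Casp4* and *Nlrp3* begin slightly upstream of these RefSeq starts, inside the windows.
Casp4: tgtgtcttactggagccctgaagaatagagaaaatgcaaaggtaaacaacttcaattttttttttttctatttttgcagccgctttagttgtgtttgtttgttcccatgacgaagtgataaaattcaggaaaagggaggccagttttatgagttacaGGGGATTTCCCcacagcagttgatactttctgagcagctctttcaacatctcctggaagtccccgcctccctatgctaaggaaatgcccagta
Casp1: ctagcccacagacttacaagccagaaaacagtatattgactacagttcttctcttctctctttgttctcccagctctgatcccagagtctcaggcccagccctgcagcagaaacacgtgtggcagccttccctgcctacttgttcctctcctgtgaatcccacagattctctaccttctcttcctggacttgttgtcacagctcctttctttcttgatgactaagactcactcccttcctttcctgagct
Nlrp3: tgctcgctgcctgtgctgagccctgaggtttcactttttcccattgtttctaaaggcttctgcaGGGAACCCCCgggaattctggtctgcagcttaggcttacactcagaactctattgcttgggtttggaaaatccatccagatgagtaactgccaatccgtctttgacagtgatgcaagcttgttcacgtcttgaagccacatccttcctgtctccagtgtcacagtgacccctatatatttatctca
Pycard: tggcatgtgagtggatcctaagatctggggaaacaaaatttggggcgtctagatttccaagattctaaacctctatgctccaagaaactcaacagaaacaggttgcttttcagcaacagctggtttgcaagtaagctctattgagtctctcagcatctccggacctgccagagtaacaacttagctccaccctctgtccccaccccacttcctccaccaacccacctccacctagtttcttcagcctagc
The *Casp4* window holds overlapping matches between 93 and 83 bases before the start, and the *Nlrp3* window holds 1 match on the opposite strand, 186 to 177 bases before it. The *Casp1* and *Pycard* windows hold none. RefSeq lists another start for 2 of these genes: that of *Casp4* lies 11 bases downstream, and its window holds the same overlapping matches, whereas that of *Nlrp3* lies 1117 bases downstream, and its window holds no match. Of 32851 RefSeq windows of this length, 3.9% hold an NF-kB match. The interferon motifs GAS (TTCNNNGAA) and ISRE core, present in 7.02% and 2.98% of those windows, were searched on both strands and occurred in none of the windows of the 8 members with a RefSeq entry, all but *Gsdmd*. The *Il18bp* window lay wholly within exons of the gene itself, and the *Aim2* window began well inside the GENCODE gene. Sequence upstream of the GENCODE start of these genes was not searched.

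Before any LPS, *Il18* was by far the most abundant member. Levels are given here as CPM per kilobase of exon, mean ± SD over the 4 sham-vehicle mice, to allow for unequal gene length. The length is that of all annotated exons of a gene merged, so a gene read mainly as a shorter transcript is understated. For *Pycard* it was 3800 bases, nearly the whole gene from 127989708 to 127993867. Which transcripts were present was not tested. *Il18* stood at 20.8 ± 5.87, with a lowest mouse at 16.5. *Casp1* (1.79 ± 0.231), *Il18bp* (1.59 ± 0.323) and *Gsdmd* (1.42 ± 0.449) followed, with ranges that overlapped one another. On these lengths *Aim2* (0.48 ± 0.124), *Pycard* (0.414 ± 0.0923), *Casp4* (0.295 ± 0.183) and *Nlrp3* (0.247 ± 0.0357) formed a lower tier in which each range overlapped that of its neighbour. *Nlrc4* was last at 0.021 ± 0.0313. In the LPS-vehicle mice the order below *Il18* (20.7 ± 1.05) was headed by *Casp4* (3.83 ± 1.31), *Gsdmd* (3.75 ± 1.14) and *Il18bp* (3.4 ± 0.738), whose ranges overlapped, so the level of *Casp4* passed from below that of *Casp1* to above its LPS-vehicle mean of 2.21 ± 0.439. In the LPS-CPD-4645 mice *Casp4* (3.02 ± 0.437) had the highest mean below *Il18*, with a range of 2.54 to 3.46 that overlapped those of *Gsdmd* (1.8 to 3.04), *Il18bp* (1.35 to 3.08) and *Casp1* (1.97 to 3.17). On these lengths *Pycard* (0.562 ± 0.113) stood below *Nlrp3* (1.08 ± 0.243), the reverse of their order in the LPS-vehicle mice (1.62 ± 0.476 and 0.77 ± 0.3). A shorter length for *Pycard* would raise its level in every group, and its order against *Nlrp3* in the LPS-CPD-4645 mice could then differ.

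LPS raised 5 of the 8 tested members: *Casp4*, *Pycard*, *Nlrp3*, *Gsdmd* and *Il18bp*, by between 2.13-fold and 12.6-fold. *Casp1*, *Aim2* and *Il18* did not pass. The threshold here is that of the study, at least 2-fold and an adjusted p no higher than 0.05 in edgeR's quasi-likelihood test, with the Benjamini-Hochberg method applied over all 17285 genes tested, and log2 fold changes are given with the standard error (SE). At that threshold 4.68% of all genes tested were higher. The same 5 members were also those whose LPS-vehicle and sham-vehicle values did not overlap, against 9.68% of all genes in that direction. The median log2 fold change over the 8 tested members was 1.24, beside -0.000654 over all genes. In bulk RNA a gain or loss of cells of one type and a change of RNA per cell cannot be told apart, and the part of the cell types whose markers are given above in any member's change was not tested.

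With CPD-4645 on top of LPS, *Pycard* alone among the 8 tested members fell past the threshold, and none rose. *Il18* was lower by 1.48-fold at an adjusted p of 0.0074 in edgeR's quasi-likelihood test, short of the 2-fold change. These were also the 2 members whose LPS-CPD-4645 and LPS-vehicle values did not overlap. Of all genes tested, 4.19% were lower at the threshold, 16.4% were lower at an adjusted p of at most 0.05 whatever the size, and 12% had lower values that did not overlap. The median over the members was -0.43, with 6 of 8 below 0, beside -0.0232 over all genes. Against the sham-vehicle mice the LPS-CPD-4645 mice had 2 members above the threshold, *Casp4* and *Nlrp3*, where 6.11% of all genes were higher. These values did not overlap with the sham-vehicle values either, as for 18.7% of all genes in that direction. These comparisons share libraries, the LPS-vehicle mice entering the first and the second, the sham-vehicle mice the first and the third and the LPS-CPD-4645 mice the second and the third, so their values are set side by side below and were not correlated.

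**Figure D2:**
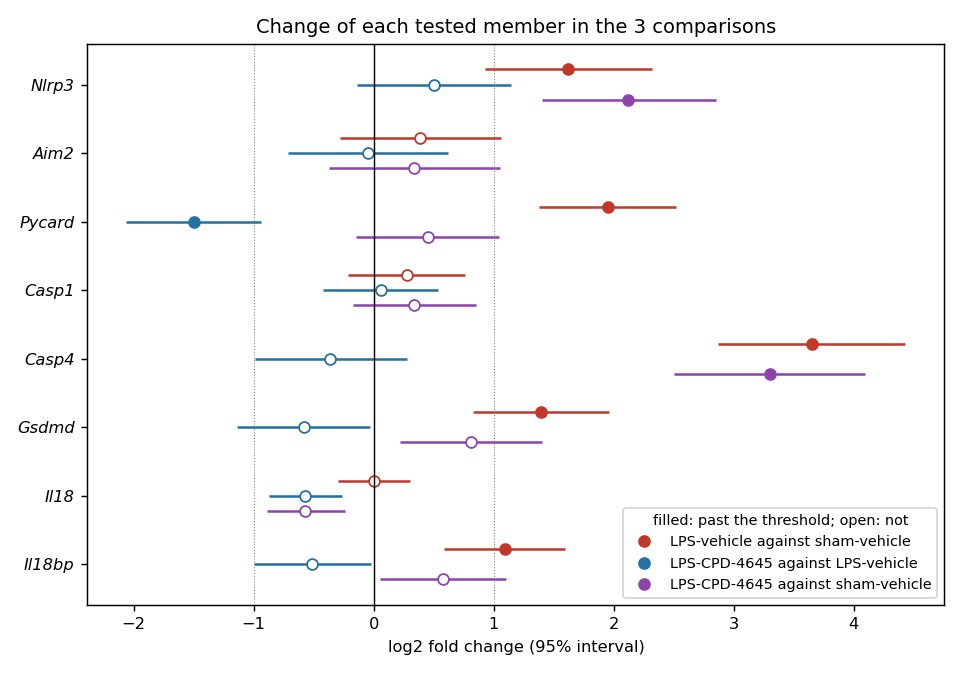
Log2 fold change of the 8 tested members (rows) in the 3 comparisons, with 95% intervals from the edgeR fit as bars, filled points past the threshold and open points not, and dotted lines at a 2-fold change. *Casp4* lies at 3.65 and 3.30 in the LPS groups against sham-vehicle, and *Pycard* is the filled point below 0, at -1.50.

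Among the sensors, *Nlrp3*, which detects potassium loss and other cell stress, rose after LPS and did not pass the threshold in either direction between the LPS groups. Its CPM were 0.827, 1.13, 1.12 and 0.938 in the sham-vehicle mice, 3.12, 4.29, 4.03, 2.98 and 1.19 in the LPS-vehicle mice, and 5.14, 4.76, 2.94 and 4.71 in the LPS-CPD-4645 mice. LPS-vehicle mouse 5 lay just above the highest sham-vehicle mouse, the other LPS-vehicle mice stood well above both, and the LPS-CPD-4645 mice overlapped with the LPS-vehicle mice. The log2 fold change was 1.62 (SE 0.33, adjusted p = 0.0019) after LPS, 0.50 (SE 0.30, adjusted p = 0.23, 95% interval -0.14 to 1.14) for CPD-4645 against LPS-vehicle, and 2.12 (SE 0.35, adjusted p = 0.00011) for LPS-CPD-4645 against sham-vehicle. The interval of the second comparison leaves out a 2-fold fall and reaches past a 2-fold rise. *Nlrp3* lies on chromosome 11 of GRCm38 (59541568 to 59566956, plus strand), and no exon of another gene overlaps its exons.

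*Aim2*, a sensor of cytosolic double-stranded DNA, differed little between the groups. The sham-vehicle mice had 1.36 ± 0.351 CPM (SD, n = 4), the LPS-vehicle mice 1.75 ± 0.471 (n = 5) and the LPS-CPD-4645 mice 1.71 ± 0.547 (n = 4), and the ranges of the 3 groups overlapped. The log2 fold change after LPS was 0.39 with an adjusted p of 0.44 in edgeR's quasi-likelihood test and an interval of -0.28 to 1.06, so a change of about 2-fold is within its error. For CPD-4645 against LPS-vehicle it was -0.05, with an interval of -0.71 to 0.62. The gene (chromosome 1, 173350879 to 173466040) overlaps the neuronal adhesion gene *Cadm3* on the other strand without sharing exon bases, and *Cadm3* reads were far more numerous, at a mean of 460 CPM in the sham-vehicle mice.

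*Nlrc4*, which responds to flagellin and secretion system proteins presented by NAIP partners, was too scarce for the main test. Without a filter on low counts all 9 members were fitted, and *Nlrc4* was not called after LPS or between the LPS groups. Its counts were 3, 0, 8 and 0 in the sham-vehicle mice, 8, 12, 0, 8 and 1 in the LPS-vehicle mice and 0, 6, 10 and 4 in the LPS-CPD-4645 mice. Every group held at least 1 mouse with no read. Summed over the libraries of a group these are 0.101, 0.185 and 0.21 CPM, with exact 95% Poisson intervals of 0.0506 to 0.181, 0.124 to 0.265 and 0.128 to 0.325, which cover counting error only and overlap. A difference was not detectable at this depth. The gene (chromosome 17, 74425438 to 74459142, minus strand) overlaps the pseudogene *CT033749.1* on its own strand.

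*Pycard* passed the threshold upward after LPS and downward with CPD-4645. Its CPM were 1.43, 1.21, 2.03 and 1.63 in the sham-vehicle mice, 6.94, 4.79, 8.07, 3.72 and 7.18 in the LPS-vehicle mice, and 2.13, 2.66, 2.15 and 1.61 in the LPS-CPD-4645 mice. Every LPS-vehicle mouse was above every mouse of the other groups, and LPS-CPD-4645 mouse 4 lay within the sham-vehicle range. LPS raised it 3.86-fold (log2 1.95, SE 0.27, adjusted p = 4.5e-05) and with CPD-4645 it fell by 1.50 on the log2 scale (SE 0.27, adjusted p = 0.00048). Its 95% interval ran from -2.06 to -0.94. Against sham-vehicle the LPS-CPD-4645 mice differed by 0.45 (SE 0.28, adjusted p = 0.23), with an interval of -0.15 to 1.04 that reaches a 2-fold rise. The neutrophil and monocyte marker sums given above followed the same order of groups, and *Pycard* is known to be abundant in myeloid cells. How much of its change went with those cells was not tested. The gene (chromosome 7, 127989708 to 127993867, minus strand) shares 12.8% of its exon bases with *Gm45205* on the other strand, whose mean was at most 0.14 CPM in any group.

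**Figure D3:**
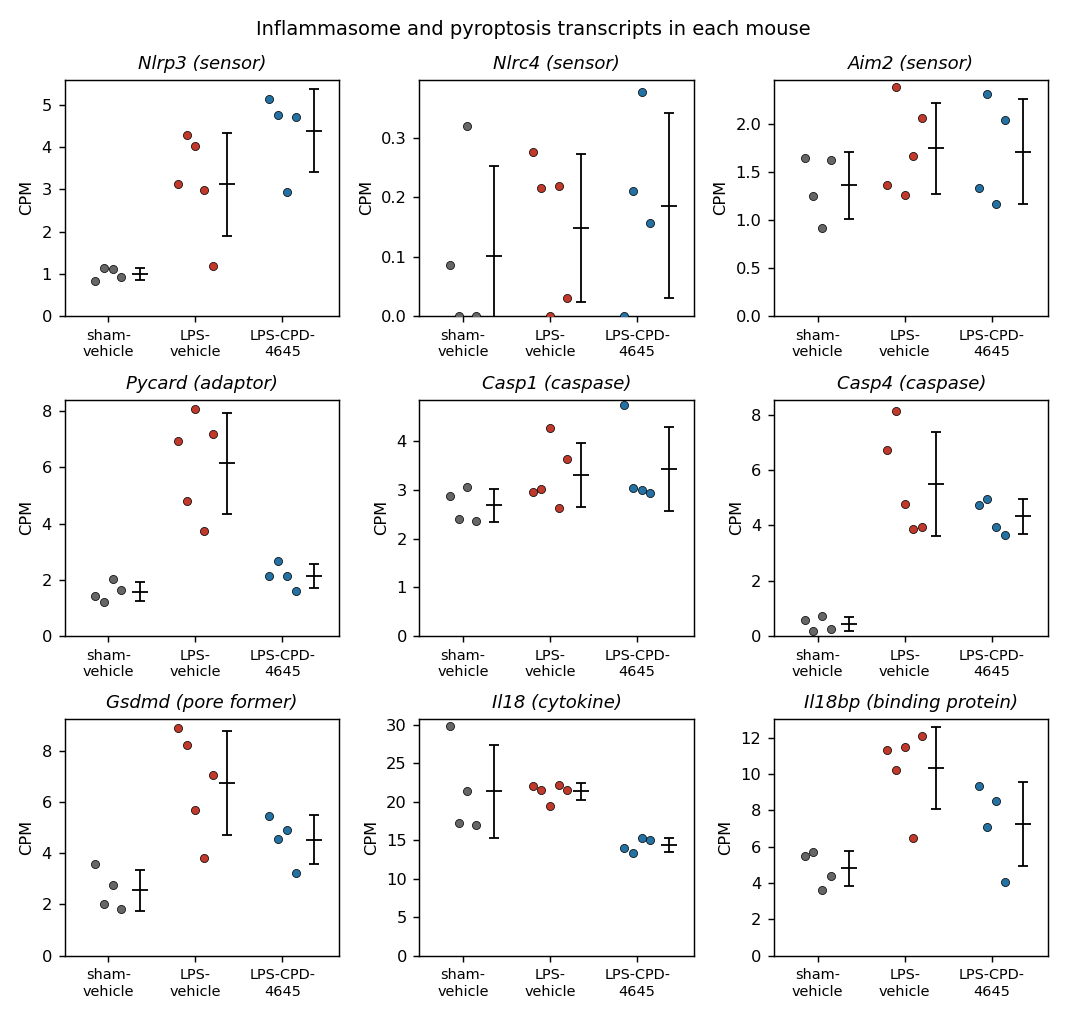
CPM of the 9 members in each mouse (points), with the mean and 1 SD of each group beside them and axes that start at 0. The LPS-vehicle values of *Pycard* (3.72 to 8.07) lie apart from those of both other groups, those of *Casp4* apart from sham-vehicle only, and the LPS-CPD-4645 values of *Il18* (13.4 to 15.3) lie below both other groups.

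The inflammatory caspases, which stand next to each other on chromosome 9, parted after LPS. *Casp4* (5308828 to 5336783, plus strand) begins 1562 bases after the end of *Casp1* (5298517 to 5307265, plus strand), and *Casp12* follows 8646 bases further on. *Casp4* had the largest log2 fold change after LPS among the 8 tested members. Its CPM were 0.57, 0.161, 0.717 and 0.247 in the sham-vehicle mice, from 4 to 20 reads a library, against 6.73, 8.16, 4.79, 3.86 and 3.93 in the LPS-vehicle and 4.74, 4.97, 3.95 and 3.65 in the LPS-CPD-4645 mice. All LPS-vehicle mice were above all sham-vehicle mice, and the LPS-CPD-4645 values fell within the LPS-vehicle range except mouse 4, just below it. The log2 fold change was 3.65 after LPS (SE 0.37, adjusted p = 1.4e-06) and 3.30 in LPS-CPD-4645 against sham-vehicle (SE 0.38, adjusted p = 3.4e-06). Between the LPS groups it was -0.36 (SE 0.30, adjusted p = 0.39), and its interval of -0.99 to 0.28 leaves out a 2-fold fall by a narrow margin.

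*Casp1*, the caspase of the canonical inflammasomes, stood at 2.68 ± 0.345 CPM (SD, n = 4) in the sham-vehicle group, at 3.31 ± 0.657 (n = 5) after LPS and at 3.44 ± 0.873 (n = 4) after LPS with CPD-4645, and the 3 ranges overlapped. Its log2 fold change after LPS was 0.28 (SE 0.23, adjusted p = 0.45), with an interval of -0.21 to 0.76 that leaves out a 2-fold change. LPS-CPD-4645 mouse 1, at 4.74 CPM, stood apart from its group, whose other mice lay between 2.94 and 3.04. *Casp12*, the third gene of the locus, also did not pass: its log2 fold change was 0.28 after LPS (SE 0.47, adjusted p = 0.73) and 0.86 for CPD-4645 against LPS-vehicle (SE 0.45, adjusted p = 0.16). The *Casp4* window printed above holds an NF-kB match and the *Casp1* window does not, and no measurement here shows what bound to either.

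Taking the *Casp4* and *Casp1* counts of each library as a ratio removes any scaling between libraries. The ratio was 0.202, 0.0744, 0.239 and 0.113 in the sham-vehicle mice, 2.27, 2.69, 1.12, 1.47 and 1.08 in the LPS-vehicle mice and 1.0, 1.63, 1.31 and 1.24 in the LPS-CPD-4645 mice. *Casp1* reads thus outnumbered *Casp4* reads in every sham-vehicle library, and *Casp4* reads were equal or more numerous in every library of both LPS groups. The mean log2 ratio was 3.50 higher in LPS-vehicle than in sham-vehicle mice (two-sided exact permutation p = 0.0079, or 0.047 adjusted over the 6 ratio tests, the former being the lowest value possible with 5 and 4 mice). It was 3.17 higher in LPS-CPD-4645 than in sham-vehicle mice, with an exact p of 0.029, which is the smallest possible for 4 against 4, and 0.058 after adjustment. Between the LPS groups it differed by -0.34, which did not pass (exact p = 0.34), with SDs of 0.29 in the LPS-CPD-4645 and 0.60 in the LPS-vehicle mice.

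*Gsdmd*, the pore former on which both branches converge, rose after LPS and lay between the sham-vehicle and LPS-vehicle levels under CPD-4645. Its CPM were 3.59, 2.01, 2.75 and 1.83 in the sham-vehicle mice, 8.86, 8.23, 5.67, 3.81 and 7.03 in the LPS-vehicle mice and 5.46, 4.55, 4.89 and 3.22 in the LPS-CPD-4645 mice. LPS-vehicle mouse 4 was the closest of its group to the sham-vehicle mice without overlapping them, and the LPS-CPD-4645 mice overlapped with both other groups. The log2 fold change was 1.39 after LPS (SE 0.27, adjusted p = 0.0012) and -0.58 for CPD-4645 against LPS-vehicle (SE 0.26, adjusted p = 0.10, interval -1.14 to -0.03). Without LPS-vehicle mouse 4 the latter was -0.74 with an adjusted p of 0.032, still under 2-fold. Against sham-vehicle it was 0.81 in the LPS-CPD-4645 mice (SE 0.28, adjusted p = 0.03), under 2-fold, where 19.5% of all genes were higher at an adjusted p no higher than 0.05. This last adjusted p stayed at or under 0.05 in 14 of 21 alternatives and was higher, up to 0.10, with limma-voom, without the shallowest 2 libraries and when LPS-CPD-4645 mouse 1, 2 or 3 or sham-vehicle mouse 2 or 4 was left out. With 1 mouse left out the change ran from 0.70 to 1.03, and at 1.03, without sham-vehicle mouse 1, it passed. *Gsdmd* lies on chromosome 15 (75862327 to 75867408, plus strand), where no other gene overlaps it.

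*Il18* did not pass after LPS and was lower with CPD-4645 than in either other group. It encodes a cytokine precursor that many tissues hold ready without stimulation. Its CPM were 29.9, 17.2, 21.4 and 17.0 in the sham-vehicle mice, 22.1, 21.6, 19.5, 22.2 and 21.5 in the LPS-vehicle mice and 14.0, 13.4, 15.3 and 15.1 in the LPS-CPD-4645 mice. The sham-vehicle mice spread widely around the narrow LPS-vehicle group, and the LPS-CPD-4645 mice were the lowest in every case. After LPS the log2 fold change was 0.00 (SE 0.14, adjusted p = 1.0), and the interval of -0.30 to 0.30 leaves out a 2-fold change in either direction.

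Under CPD-4645 *Il18* differed by -0.57 from LPS-vehicle (SE 0.15, adjusted p = 0.0074) and by -0.57 from sham-vehicle (SE 0.15, adjusted p = 0.007), in edgeR's quasi-likelihood test, and both differences rest on the same 4 LPS-CPD-4645 mice. Neither passed the 2-fold threshold, and both adjusted p values were at or under 0.05 in all 21 alternatives, the highest being 0.029 and 0.04. Without sham-vehicle mouse 1, the highest of its group, the difference from sham-vehicle was -0.36. Against sham-vehicle 19.3% of all genes were lower at an adjusted p no higher than 0.05, and 18.8% had values below the sham-vehicle range, as *Il18* did. The microglial marker sum had medians of 224, 155 and 122 CPM in the sham-vehicle, LPS-vehicle and LPS-CPD-4645 groups, and its part in the difference was not tested. *Il18* (chromosome 9, 50554827 to 50581840, plus strand) overlaps *Bco2* and *Tex12* on the other strand without sharing exon bases.

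*Il18bp* encodes a secreted protein that binds IL-18 and keeps it from its receptor. Its CPM were 5.5, 5.71, 3.62 and 4.39 in the sham-vehicle mice, 11.3, 10.2, 11.5, 6.49 and 12.1 in the LPS-vehicle mice and 9.33, 7.06, 8.51 and 4.08 in the LPS-CPD-4645 mice. LPS-vehicle mouse 4 was well below its group but above all sham-vehicle mice, and LPS-CPD-4645 mouse 4 lay inside the sham-vehicle range. The log2 fold change was 1.09 after LPS (SE 0.24, adjusted p = 0.0032), just past 2-fold, and without sham-vehicle mouse 3 it was 0.98, with an adjusted p of 0.016. For CPD-4645 it was -0.51 against LPS-vehicle (SE 0.23, adjusted p = 0.11) and 0.58 against sham-vehicle (SE 0.25, adjusted p = 0.075). Without LPS-vehicle mouse 4 the former was -0.64 with an adjusted p of 0.041, and without LPS-CPD-4645 mouse 4 the latter was 0.79 with an adjusted p of 0.012, both still under 2-fold. The gene (chromosome 7, 102014885 to 102018690, minus strand) shares 80 exon bases, 2.64% of its own, with *Numa1* on the other strand. *Numa1* was more abundant, at means of 71.9, 86.0 and 49.2 CPM in the 3 groups, and it was itself lower under CPD-4645 than after LPS alone, by -0.81 on the log2 scale (adjusted p = 5.2e-06). The share of *Il18bp* reads that lie in those 80 bases was not tested.

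The counts of *Il18bp* relative to *Il18* had a higher mean in both LPS groups than in the sham-vehicle mice. The ratio was 0.184, 0.333, 0.17 and 0.259 in the sham-vehicle mice, 0.509, 0.474, 0.588, 0.293 and 0.563 in the LPS-vehicle mice and 0.668, 0.527, 0.556 and 0.27 in the LPS-CPD-4645 mice. Mouse 4 of either LPS group fell within the sham-vehicle range, and every other LPS mouse was above it. The mean log2 ratio was 1.05 higher in LPS-vehicle than in sham-vehicle mice (two-sided exact permutation p = 0.024, or 0.058 adjusted over 6 tests), which does not pass after adjustment. It was 1.07 higher in LPS-CPD-4645 than in sham-vehicle mice, which does not pass (exact p = 0.057, or 0.086 adjusted). The LPS groups differed by 0.02 (exact p = 0.92), with means of -1.06 ± 0.57 (n = 4) and -1.08 ± 0.40 (n = 5).

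**Figure D4:**
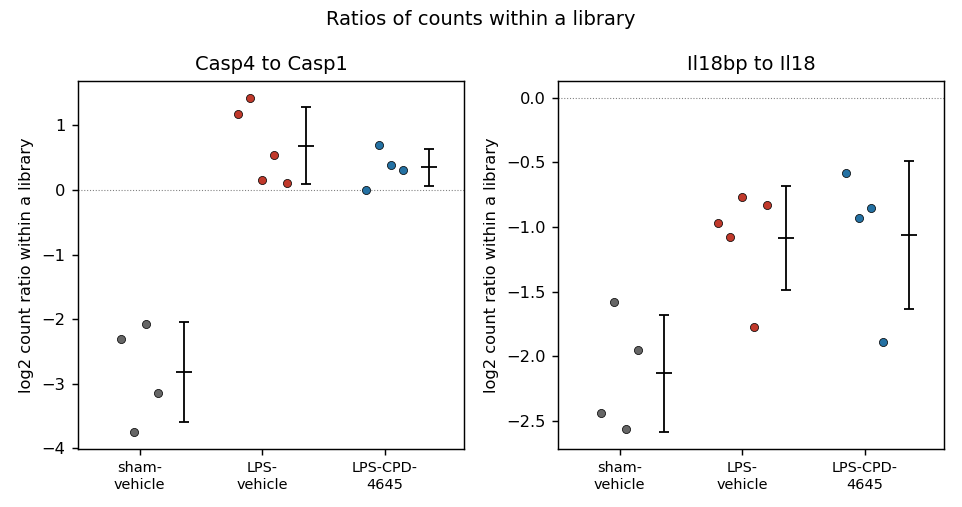
Log2 ratio of counts within each library, *Casp4* to *Casp1* at left and *Il18bp* to *Il18* at right, with the mean and 1 SD of each group. The sham-vehicle means are -2.82 and -2.13, the LPS-vehicle means 0.69 and -1.08 and the LPS-CPD-4645 means 0.35 and -1.06.

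The sensor *Nlrp3* and its adaptor *Pycard* both rose after LPS, and between the LPS groups *Pycard* fell while *Nlrp3* did not pass the test (log2 difference 0.50, adjusted p = 0.23, 95% interval -0.14 to 1.14). This pair was picked after the values were seen, and its ratio is a description without a test. The log2 ratio of *Pycard* to *Nlrp3* counts was 0.63 ± 0.35 (SD, n = 4) in the sham-vehicle group, 1.04 ± 0.96 (n = 5) after LPS and -1.02 ± 0.48 (n = 4) after LPS with CPD-4645. It was above 0 in every sham-vehicle and LPS-vehicle library, the lowest being 0.10 and 0.16, and below 0 in every LPS-CPD-4645 library, the highest being -0.45.

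For each tested member the genes with the most similar profile over the 13 mice were sought among 14845 genes of at least 1 CPM, by the root mean square difference of centred log2 CPM. Nearest to *Casp4* was *Slfn2*, at 0.316, against a spread of *Casp4* itself of 1.68. *Nlrp3* (own spread 0.938) was nearest to *Plscr1* at 0.323 and *Csrnp1* at 0.325, and *Pycard* (own spread 0.892) to the complement gene *C1qc* at 0.348 and *Anxa2* at 0.356. *Gsdmd* (own spread 0.678) lay nearest to *Zc3hav1* at 0.269 and *Gpsm3* at 0.274, and *Il18bp* (own spread 0.57) to *Psd4* at 0.245 and *Timp4* at 0.256. No member was among the nearest 2 genes of another. For *Casp1*, *Il18* and *Aim2* the own spread was small, at 0.273, 0.317 and 0.381, and the nearest genes were *Mrpl23* at 0.124, *Ebp* at 0.163 and *Rom1* at 0.271. These are descriptions over libraries that share their groups and depths.

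Many genes of the wider pathway also rose after LPS. Of 57 further genes of sensing, cell death, priming, cytokine signalling and inhibition, 45 were tested, 22 rose and 1 fell, beside 4.68% and 0.995% of all genes. With at least 50 reads on average, 14 of 31 rose. The list was written with earlier results of these data known and many of its genes are textbook LPS targets, so its count is a description. Under CPD-4645 against LPS-vehicle 2 of the 45 fell and none rose, beside 4.19% and 1.7% of all genes, and at an adjusted p of at most 0.05 of any size 6 were lower and 6 higher, beside 16.4% and 14.1%. The median of the list was 1.17 after LPS and -0.18 for CPD-4645 against LPS-vehicle. Against sham-vehicle, 20 of the 45 were above the threshold in the LPS-CPD-4645 mice and 1 below it, beside 6.11% and 4.98%. The largest fitted rise among these was that of *Ifi204*, whose sham-vehicle libraries held at most 3 reads each. Next on the log2 scale were *Il18rap* at 4.40, *Il1rn* at 4.14, *Il1a* at 3.89, *Zbp1* at 3.78, *Gbp2* at 3.55, *Gbp5* at 3.51 and *Gbp3* at 3.09.

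All 4 tested genes of the cytokine list rose after LPS, beside 4.68% of all genes. *Il1b*, the other cytokine precursor cut by caspase-1, was at 0.511 ± 0.248 CPM in the sham-vehicle group, 11.3 ± 8.24 after LPS and 4.2 ± 2.29 after LPS with CPD-4645. It rose by 4.46 on the log2 scale after LPS (SE 0.63, adjusted p = 4.9e-05) and fell by 1.41 with CPD-4645 (SE 0.51, adjusted p = 0.043), although the LPS groups overlapped. That call held in 13 of 21 alternatives and was lost, among others, with limma-voom (-1.23, adjusted p = 0.13) and when LPS-CPD-4645 mouse 2 (-1.16, adjusted p = 0.13) or 3 (-1.23, adjusted p = 0.12), or LPS-vehicle mouse 2 (-1.18, adjusted p = 0.10) or 3 (-1.05, adjusted p = 0.11), was left out.

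*Il1a*, an alarmin of the same family that acts without caspase-1, rose by 3.39 after LPS (SE 0.67, adjusted p = 0.0014) and differed by 0.50 under CPD-4645 (adjusted p = 0.52). *Il1rn*, the IL-1 receptor antagonist, rose by 5.04 (SE 0.65, adjusted p = 1.8e-05). Under CPD-4645 it was at 3.52 ± 0.905 against 6.7 ± 4.42 CPM in the LPS-vehicle mice, a difference of -0.90 that did not pass (adjusted p = 0.16). Without LPS-vehicle mouse 5 it passed at -1.17 (adjusted p = 0.038), and with the replicate number as a block at -1.09 (adjusted p = 0.042). Of the IL-18 receptor chains, *Il18rap* rose by 4.41 (SE 0.62, adjusted p = 4.8e-05), from 0.0798 ± 0.0978 to 1.97 ± 0.706 CPM, and was at 2.02 ± 0.848 under CPD-4645. The partner chain *Il18r1* held at most 6 reads in any library and was not tested.

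Genes that prime or relay inflammasome sensing gave 8 rises among 14 tested, beside 4.68% of all genes. None fell past the threshold with CPD-4645, beside 4.19% of all genes. Whatever the size, 4 of the 14 were lower at an adjusted p of at most 0.05 and 2 higher, beside 16.4% and 14.1%. *Myd88*, which had risen after LPS, was among the 4. The guanylate-binding proteins expose cytosolic LPS to caspase-11. *Gbp5* rose by 3.36 (SE 0.32, adjusted p = 5.9e-07) and *Gbp2* by 2.68 (SE 0.34, adjusted p = 1.8e-05). *Gbp2* stood at 40.1 ± 14.2 CPM after LPS and at 72.7 ± 26.6 with CPD-4645, a log2 difference of 0.87 (adjusted p = 0.035) that was under 2-fold except without LPS-CPD-4645 mouse 4 (1.07, adjusted p = 0.016). *Irf1*, an interferon-induced factor upstream of these genes, rose by 2.05 (SE 0.31, adjusted p = 0.00011), and *Txnip*, a binding partner of NLRP3, went from 23.5 ± 3.14 to 83.5 ± 16.1 and 131 ± 17.4 CPM over the 3 groups. The LPS receptor *Tlr4* was scarce and did not pass: its log2 fold change was 1.17 after LPS (SE 0.50, adjusted p = 0.11) and -1.15 for CPD-4645 against LPS-vehicle (SE 0.51, adjusted p = 0.097).

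Among cell death effectors 3 of 9 tested rose after LPS, beside 4.68% of all genes. *Zbp1*, a nucleic acid sensor that engages RIPK3, rose by 4.61 (SE 0.42, adjusted p = 3.9e-07), and the necroptosis kinase *Ripk3* and its substrate *Mlkl* passed as well. *Casp8*, the apical caspase of apoptosis, was higher by 0.97 (SE 0.26, adjusted p = 0.013), just under 2-fold. *Ninj1*, which ruptures the plasma membrane late in pyroptosis, stood at 25.2 ± 1.76, 29.8 ± 5.77 and 24.9 ± 3.22 CPM, with a log2 fold change of 0.25 after LPS (adjusted p = 0.21, interval -0.03 to 0.52).

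Of the AIM2-like receptors, paralogs whose reads the counting may have split between copies, *Ifi204* and *Ifi207* rose after LPS among 4 tested, beside 4.68% of all genes. *Ifi204* was at or under 3 reads in all sham-vehicle libraries, and set against that floor its mean was at least 18.3-fold higher in the LPS-vehicle and at least 9.07-fold higher in the LPS-CPD-4645 mice. *Ifi207* rose by 3.12 (SE 0.71, adjusted p = 0.0042). Of the other sensors, *Nlrp6*, *Naip2* and *Naip5* rose after LPS among 8 tested, beside the same share. *Naip2* and *Naip5*, which present bacterial ligands to NLRC4, are near copies of each other.

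Inhibitors of the pathway did not move as one. *Serpinb1a*, a serpin that restrains inflammatory caspases and neutrophil proteases, was the only pathway gene to fall after LPS, from 16.9 ± 0.596 to 2.57 ± 1.0 CPM (log2 -2.69, SE 0.24, adjusted p = 3.5e-07), and it was at 2.27 ± 0.51 in the LPS-CPD-4645 mice. *Serpinb9*, an intracellular granzyme B inhibitor, fell with CPD-4645 from 16.3 ± 2.12 to 7.8 ± 0.953 CPM (log2 -1.07, SE 0.16, adjusted p = 0.00011). It was then also below the sham-vehicle mean of 12.5 ± 2.44, and without LPS-CPD-4645 mouse 3 its change was -0.99 and under 2-fold. *Tnfaip3* and *Trim30a*, which limit NF-kB signalling and NLRP3, rose after LPS.

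**Figure D5:**
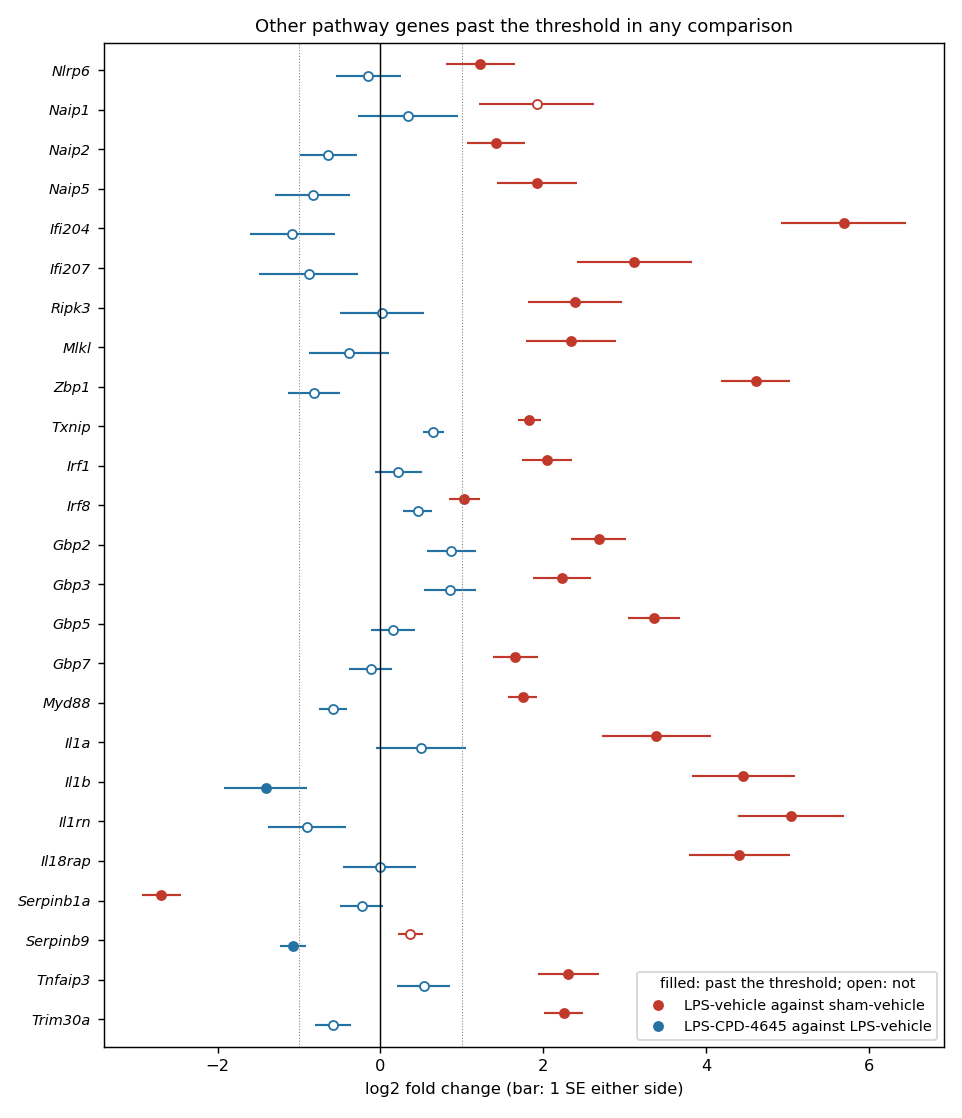
Log2 fold change with 1 SE either side for the further pathway genes past the threshold in any comparison, for LPS-vehicle against sham-vehicle (red) and LPS-CPD-4645 against LPS-vehicle (blue), filled where past the threshold. Red points lie mostly to the right and *Serpinb1a* at -2.69, and the filled blue points are *Il1b* at -1.41 and *Serpinb9* at -1.07. The red value of *Ifi204* is fitted against sham-vehicle libraries of at most 3 reads and is no measure of size.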

How the data were processed

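Neurovascular polyA RNA of 13 mice was sequenced from stranded libraries. The authors aligned the reads with STAR 2.5.2a (with bcl2fastq 2.15.0.4 for base calls, per the submitters' processing notes) to GRCm38 and deposited whole-number counts per gene of GENCODE M9, without normalization. Which strand column of the counts was kept is not given in the sources used here. Groups and replicate numbers came from the sample labels.

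Symbols, exon lengths and overlaps came from GENCODE M21 on the same build (47224 of 47643 identifiers matched), and promoter windows from RefSeq (8 of 9 members listed). The counts were analysed in R 4.3.3 with edgeR 4.0.16 by its quasi-likelihood test, with TMM (factors 0.908 to 1.08) and filterByExpr (minimum count 10, minimum total 15), which left 17285 of 27934 genes. All 13 mice entered 1 fit of the 3 groups without covariates. The study used limma-voom, which was run as an alternative (limma 3.58.1), as was DESeq2 1.42.0. SE were derived from the F statistics. Ratios within a library used a pseudocount of 0.5 and exact permutation tests. The edgeR step was tested on simulated data. Python 3.11.15 with pandas 2.3.3, numpy 2.4.6, scipy 1.17.1 and matplotlib 3.10.9 did the rest.

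The members and lists were chosen with earlier results of these data known. Named are the 9 members, for each comparison at most 10 pathway genes past the threshold by size of change, 10 pathway genes in any case (*Il1b*, *Il1a*, *Il18r1*, *Il18rap*, *Tlr4*, *Irf1*, *Gbp2*, *Gbp5*, *Ninj1* and *Casp8*), and the nearest 2 genes by profile. *Casp12*, *Ripk3*, *Mlkl*, *Txnip*, *Nlrp6*, *Naip2*, *Naip5*, *Tnfaip3*, *Trim30a*, *Mefv* and the genes of small change in the closing section were named after their values were seen, and genes that overlap a member are named with it. No library appeared to be deposited more than once, since the squared differences of 22 replicate pairs were 9.26 to 56.5 times those of counting error. Floors (3 counts) and the Poisson intervals of *Nlrc4* cover counting error only, whereas the intervals of fitted log2 differences include the spread between mice.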

Additional observations from a re-analysis of the deposited data

Results flagged for a closer look

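In 2 of 33 groups of values examined, a mouse stood apart from the others of its group by Dixon's criterion, which chance meets in about 1 group of 20. For *Casp1*, LPS-CPD-4645 mouse 1 was at 4.74 CPM while the others of its group were between 2.94 and 3.04, and without it the log2 difference from LPS-vehicle was -0.11 in place of 0.06, neither past the threshold. For *Il18*, LPS-vehicle mouse 3 was at 19.5 CPM while the others of its group were between 21.5 and 22.2, and without it the log2 fold change after LPS was 0.03. These were the libraries with the fewest counts, 12548404 and 7813559. Whether depth bears on either value was not tested.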

How the results depend on the processing

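Over 21 alternatives, the calls of *Casp4*, *Nlrp3*, *Pycard* and *Gsdmd* after LPS, of *Casp4* and *Nlrp3* in LPS-CPD-4645 against sham-vehicle mice and of *Pycard* between the LPS groups kept their direction and passed. Calls of *Gsdmd* and *Il18bp* that depend on a library are given with those genes. With no minimum fold change, the members lower under CPD-4645 were 2 against LPS-vehicle and 1 against sham-vehicle, and pathway genes were 6 lower and 6 higher against LPS-vehicle and 5 lower against sham-vehicle. Pathway genes higher after LPS were 14 at a mean count of at least 50. Those lower between the LPS groups were 1 with limma-voom, with only the 2 groups compared and without the shallowest 2 libraries, and with 1 mouse left out 0 (without LPS-CPD-4645 mouse 3) to 3 were lower and 0 to 2 higher. With 1 mouse left out the members higher were 4 to 5 after LPS and 2 to 3 in LPS-CPD-4645 against sham-vehicle mice. Differences near 0 changed sign. That of *Il18* after LPS was 0.01 with limma-voom, 0.00 at a mean count of at least 50, 0.03 without the shallowest 2 libraries and -0.10 to 0.21 with 1 mouse left out. Between the LPS groups *Aim2* was -0.22 to 0.12 and *Casp1* -0.11 to 0.15 with 1 mouse left out, and *Casp1* was -0.03 without the shallowest 2. The log2 ratio of *Il18bp* to *Il18* differed by 0.91 to 1.23 after LPS, by -0.15 to 0.30 between the LPS groups and by 0.91 to 1.35 in LPS-CPD-4645 against sham-vehicle mice with 1 mouse left out, and by 0.97 and -0.06 in the first of these comparisons and the second without the shallowest 2. The unadjusted exact p after LPS was then 0.057. The causes were not tested, beyond fewer samples or genes.

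The labels give same-numbered mice no link beyond the number, and correlations of their deviations ran from -0.03 to 0.11 over 12 pairs. With the replicate number as a block, members higher after LPS were 4 (*Il18bp* at 1.0, just under 2-fold), *Il18* was 0.03 after LPS and *Aim2* 0.04 between the LPS groups, and no other member's call changed. Pathway genes were then 20 higher after LPS and 3 lower between the LPS groups. A library correlated best with its own number in 12 of 24 cases, where numbers unrelated to the mice would give 5.6 on average, a hint from the data and not from the design. These cases take each of the 12 pairs from both sides, so they are not independent.

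Depth limits the scarce genes: *Nlrc4* did not enter the main test, *Aim2* had 10 reads in the shallowest library and was left out at a mean count of at least 50, and *Casp4* rests on 4 to 20 reads in the sham-vehicle libraries.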

Other observations

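Pathway genes with an adjusted p of at most 0.05 between the LPS groups were 6 higher and 6 lower of 45 tested, beside 14.1% and 16.4% of all genes. *Gbp2*, *Il1b* and *Serpinb9* are described above. By edgeR's quasi-likelihood test and by less than 2-fold, the NLRP3 partner *Nek7* (0.27, adjusted p = 0.02), the mitochondrial family member *Nlrx1* (0.65, adjusted p = 0.0033), the RNA helicase *Dhx15* (0.56, adjusted p = 4.6e-05), *Txnip* (0.65, adjusted p = 0.0013) and *Card19* (0.34, adjusted p = 0.045) were higher on the log2 scale with CPD-4645. The adaptor genes of Toll-like receptors *Myd88* (-0.58, adjusted p = 0.017) and *Ticam1* (-0.75, adjusted p = 0.0074), the factor *Irf2* (-0.48, adjusted p = 0.0034) and the channel gene *Panx1* (-0.43, adjusted p = 0.011) were lower. *Myd88* overlaps *Slc22a14* on its own strand.

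*Mefv*, which encodes the sensor pyrin of neutrophils and monocytes, had too few reads to be tested in the main comparison. It had no read in any sham-vehicle library, 1 to 55 in the LPS-vehicle and 0 to 2 in the LPS-CPD-4645 libraries, and its LPS-vehicle mean was at least 3.33-fold higher than the floor of 3 reads per sham-vehicle library. Without LPS-vehicle mouse 2, which held the 55 reads, that bound was 2.07-fold, and 2 of the 5 LPS-vehicle libraries were themselves at or under 3 reads. Without a filter on low counts its log2 difference between the LPS groups was -3.50 (adjusted p = 0.045), and it passed in 6 of 21 alternatives. The neutrophil markers given above moved in the same direction, and their part in it was not tested.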
